A study of Mus musculus and Homo sapiens with 10 samples.

Results

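In K562, a human erythroleukaemia line grown to passage 14 with no treatment named, 5904 islands had exactly the same chromosome, start and end in the H3K27ac list and in the H3K4me1 list. An island is a stretch of DNA enriched for a mark, built by the authors' caller from windows of 200 bp. The members were chosen by these shared coordinates on the numbered chromosomes. They make up 3.47% of the 170061 H3K27ac islands and 5.34% of the 110485 H3K4me1 islands there, and cover 9.48 Mb. Both marks were mapped by immunoprecipitation of chromatin cut with micrococcal nuclease, with Abcam antibodies and 1 library per mark. Another list, H3K122ac, came from the same line, and an input library of K562 is also among the 10 libraries of the series. The other 6 come from mouse embryonic stem cells and were not used here.

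H3K27ac, acetylation of lysine 27 in the tail of histone H3, is laid down by the acetyltransferases CBP and p300 and is found at active promoters and enhancers. H3K4me1, monomethylation of lysine 4, is laid down largely by MLL3 and MLL4 and is broad at enhancers, active or primed, while the centres of strong promoters usually carry the trimethylated form instead. H3K122ac lies in the globular domain of H3, at the surface that touches the DNA of the nucleosome. The ratio of H3K27ac to H3K4me1 on the same bases is therefore a common way to order regulatory regions. Identical ends allow that ratio to be read without a difference in length, and the background library gave the same count in both lists at all 5904 islands.

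The choice rests on the reads of both libraries, since each island had to pass the caller in each list with the same ends. The values of the 2 marks on these islands are therefore described and not tested. With 1 library per mark there is no replicate error. Intervals on counts, shares and medians are 95% intervals that cover counting over reads or islands only, and neighbouring islands are not independent. The H3K27ac list holds 34195325 reads over 314.9 Mb, a mean of 108.6 reads per kb, and the H3K4me1 list 35562145 reads over 365.1 Mb, a mean of 97.4 reads per kb. Each count was divided by the total of its own list, and the result, its share of the list, is plotted in reads per 1000000 list reads (rpm). The ratio below is the H3K27ac share over the H3K4me1 share, and a positive log2 ratio means a larger share in the H3K27ac list. The identity of the line was not checked against marker genes, because no hg19 gene annotation was used here.

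The 2 marks were close to even on most of these islands. The members held 1071419 H3K27ac reads and 1062957 H3K4me1 reads, which is 3.13% and 2.99% of their lists. H3K27ac counts per island had a lowest value of 25, a median of 114 and a highest value of 5453 reads, and H3K4me1 counts a lowest value of 28, a median of 110 and a highest value of 5821. The median log2 ratio was 0.07 (0.06 to 0.08), the quartiles were -0.23 and 0.34, and 4394 islands, 74.4% (73.3 to 75.5%), lay within 0.5 of 0. Across islands, reads per kb of the marks had a Spearman correlation of 0.60 (5904 islands, which share mappability and DNA copy number between the marks).

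Where the marks did diverge, the tail by share was longer on the H3K27ac side. H3K27ac was at least 2-fold higher on 120 islands and H3K4me1 at least 2-fold higher on 53. These are 2.03% and 0.898% of the members. The extremes were 2.23 and -1.40 on the log2 scale, 16 islands reached a log2 ratio of 1.5 on the H3K27ac side, and none reached -1.5 on the H3K4me1 side. The islands higher in H3K27ac had medians of 244 H3K27ac reads, 113.5 H3K4me1 reads and 78 background reads, over a median length of 1500 bp. The islands higher in H3K4me1 had medians of 88 H3K27ac reads, 199 H3K4me1 reads and 75 background reads, over 1200 bp. The H3K4me1 count on islands higher in H3K27ac was near the median of all members, 110 reads, but all members had a shorter median length, 1200 bp. The median H3K4me1 fold was 2.67 on islands higher in H3K27ac, against 2.99 over all members.

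**Figure D1:**
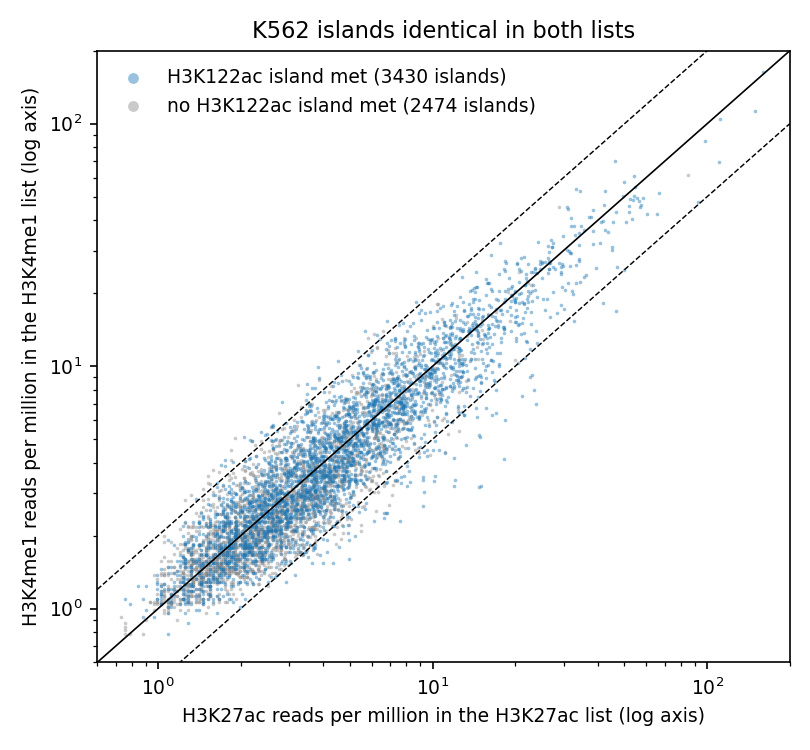
H3K27ac (x axis) and H3K4me1 (y axis) rpm of the list total on the 5904 identical islands, on log axes. Points are islands, blue where an H3K122ac island is met and grey where none is. The solid line marks equal shares and the dashed lines a 2-fold difference, which 120 islands exceed below the lines and 53 above them.

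Which mark counted as higher over the whole set depended on the scaling. By share of the list, 56.6% of members were higher in H3K27ac. With each count divided by the authors' ratio of the ChIP library to the background library, 0.688 for H3K27ac and 0.581 for H3K4me1, every log2 ratio moved by -0.30. Then 28.5% were higher in H3K27ac, 42 islands were at least 2-fold higher in H3K27ac and 274 in H3K4me1. The order of the islands is the same under both. Background reads, scaled by these ratios, amounted to a median of 41.3% of the H3K27ac reads and 33.5% of the H3K4me1 reads in an island. With that background taken off, the median log2 ratio was -0.38, its SD was 0.77, and 220 islands were at least 2-fold higher in H3K27ac and 1207 in H3K4me1. Of the 120 islands that were at least 2-fold higher in H3K27ac by share, 108 passed 2-fold after background was taken off. All 53 on the H3K4me1 side did, but by construction. Library ratios and the removal of an equal background from both marks can only lower such ratios. The percentages past 2-fold of the members and of other pairs are therefore given below under both scalings. Other counts and medians by direction, among them the classes set against H3K122ac, are by share of the list unless stated.

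Members and other overlapping islands had unlike ratios. In 46400 pairs, an H3K27ac island met a single H3K4me1 island and that island met no other. Compared per kb, H3K27ac was at least 2-fold higher in 7.12% of all these pairs, identical ones included, and H3K4me1 in 0.886%, by share of the list. H3K27ac was at least 2-fold higher on 2.03% of the members, against 7.87% (7.61 to 8.13%) of the 40496 pairs whose ends differed. H3K4me1 was at least 2-fold higher on 0.898% of the members, against 0.884% (0.797 to 0.980%) of those pairs. With library ratios H3K27ac was at least 2-fold higher on 0.711% of the members and in 3.33% of the pairs with differing ends, and H3K4me1 on 4.64% of the members and in 3.97% of those pairs. The median log2 ratio was 0.07 and the SD 0.45 in the members, against 0.21 and 0.55 in the pairs with differing ends. In 25965 of these pairs the H3K4me1 island was the longer, and in 13157 the H3K27ac island, with median lengths of 1400 bp for H3K27ac and 2000 bp for H3K4me1. The caller joined windows across gaps of 200 bp for H3K27ac and 600 bp for H3K4me1, so a difference in length cannot be told apart from this setting. The reads that set the ratio also set the ends, so these values are side by side as a description, and the part of length was not tested.

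Islands that just missed the rule had values near those of the members. In 8557 pairs, neither end differed by more than 1 window of 200 bp. Their median log2 ratio was 0.06 and the SD 0.46, and 1.97% were at least 2-fold higher in H3K27ac and 1.19% in H3K4me1, by share. With library ratios the median was -0.24, and the percentages were 0.491% for H3K27ac and 5.74% for H3K4me1. The median H3K27ac fold over background was 2.42 in the members and 2.37 in these pairs. Folds are the authors' own, each read within its list.

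**Figure D2:**
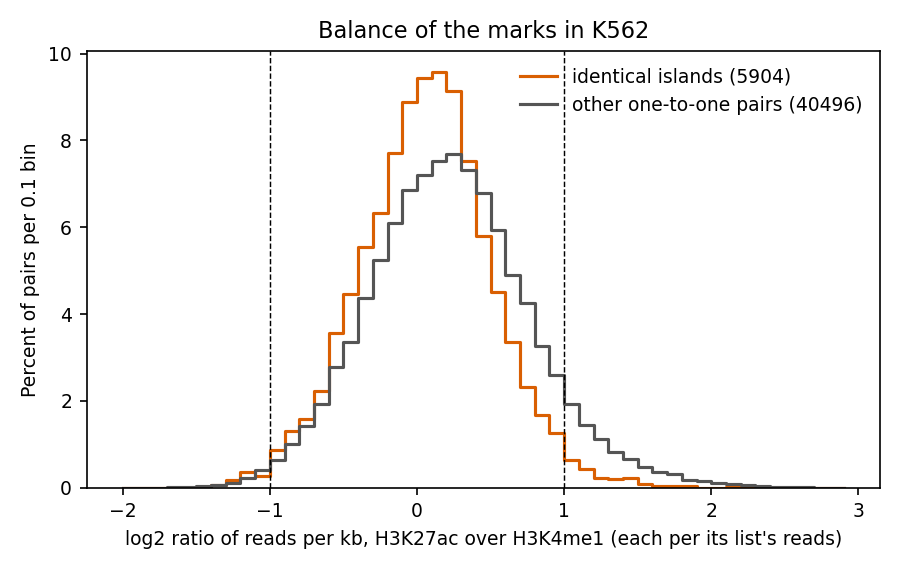
Percent of pairs (y axis) in bins of 0.1 of the log2 ratio of reads per kb, H3K27ac over H3K4me1 (x axis), for the 5904 identical islands and for the 40496 other exclusive pairs. Dashed lines mark 2-fold. The curve of the other pairs reaches further to the H3K27ac side, with 2.03% of the identical islands and 7.87% of the other pairs past 2-fold there.

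The spread between members was larger than counting gives. The SD of the log2 ratio was 0.45, against 0.20 from Poisson counting of both libraries, which leaves 0.40 beyond counting. In the decile of islands with the fewest reads, the SD of 0.29 did not exceed the counting value of 0.30. It was 0.52 against 0.12 in decile 9, and 0.46 against 0.09 in the decile with the most reads. In the 246 islands with at least 500 reads of each mark it was 0.35, against 0.07 from counting. Each member had to pass the caller in both lists, so islands with few reads and a skewed ratio are missing there, and no island of that decile was past 2-fold either way. With no second library, the part of library preparation in the remaining spread was not tested.

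**Figure D3:**
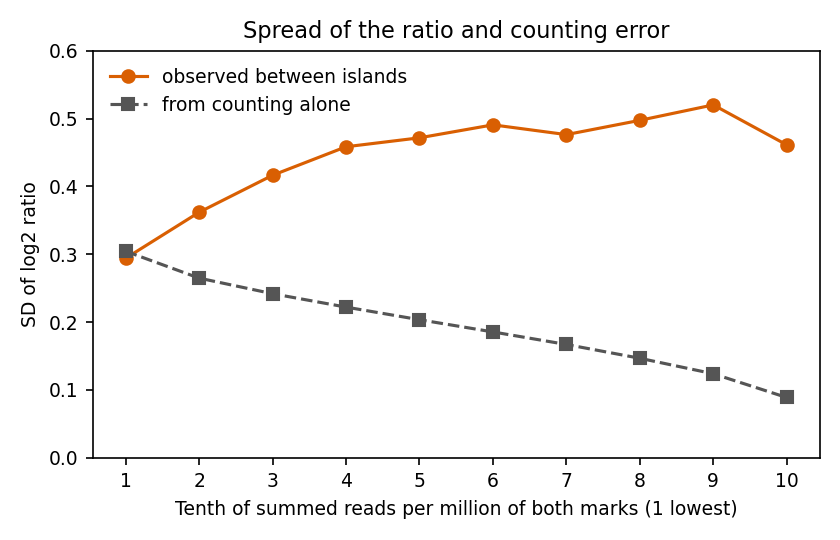
SD of the log2 ratio of H3K27ac over H3K4me1 (y axis) by decile of the summed shares of both marks (x axis). Orange points are the SD observed between islands and grey squares the SD from counting alone. The values are 0.29 and 0.30 in the lowest decile and are 0.46 and 0.09 in the highest.

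The 3 highest ratios of H3K27ac over H3K4me1 all lay on chromosome 19. Coordinates are hg19, 1-based. The island chr19:58872601-58874600 held 513 H3K27ac reads and 114 H3K4me1 reads over 89 background reads, a log2 ratio of 2.23 (1.93 to 2.53, exact binomial interval for counting). The island chr19:37262001-37264400 held 505 H3K27ac reads and 113 H3K4me1 reads, a log2 ratio of 2.22. At chr19:5789801-5791800 there were 623 H3K27ac reads and 147 H3K4me1 reads, a log2 ratio of 2.14. On each of them H3K4me1 was called but weak, with folds of 2.21, 1.87 and 1.69 over background, while H3K27ac folds were 8.38, 7.06 and 6.04. The next in order were chr16:2060001-2061200, with 409 H3K27ac and 114 H3K4me1 reads, and chr7:10214401-10216400, with 414 and 121. All 5 met an H3K122ac island, of fold 25.9, 28.2, 16.5, 13.7 and 24.0 in this order.

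At the other end, H3K27ac was called with folds at or below the median of all members, 2.42. The lowest ratio was at chr2:223687601-223688600, with 65 H3K27ac reads and 179 H3K4me1 reads over 61 background reads, a log2 ratio of -1.40 (-1.84 to -0.99). The island chr17:17817001-17818800 followed with 131 H3K27ac and 352 H3K4me1 reads, a log2 ratio of -1.37. The islands chr1:95722601-95724200, chr12:63337801-63339200 and chr9:130690401-130691400 had log2 ratios of -1.36, -1.33 and -1.31. H3K27ac folds of these 5 ranged from 1.55 to 2.42, and H3K4me1 folds from 5.05 to 7.42. The islands on chromosomes 2 and 1 met no H3K122ac island, the nearest lying 4800 and 3800 bp away. Those on chromosomes 17, 12 and 9 met H3K122ac islands of fold 2.92, 2.95 and 8.59, all below the 5 folds on the H3K27ac side.

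Among the 3 longest members, 2 carried both marks at nearly equal share and 1 leaned to H3K27ac. The longest, chr11:5284601-5314800, spanned 30200 bp and held 5453 H3K27ac reads and 5821 H3K4me1 reads over 1576 background reads. Its log2 ratio was -0.04 (-0.09 to 0.02), with folds of 5.03 and 6.36, and 3 separate H3K122ac islands lay across it. The island chr3:14263401-14282400 of 19000 bp held 3817 H3K27ac and 3730 H3K4me1 reads, a log2 ratio of 0.09. The island chr6:13973801-13995600 of 21800 bp had more H3K27ac under both scalings, with 5110 H3K27ac and 4006 H3K4me1 reads and a log2 ratio of 0.41 (0.35 to 0.47). A further even island of many reads, chr19:52004601-52014800, held 1870 H3K27ac and 1947 H3K4me1 reads. An identical H3K27ac island was found for 14.4% of H3K4me1 islands of up to 400 bp and for 0.900% of those above 5000 bp, which gave 156 members. In the H3K27ac list the share was 2.79% up to 400 bp and 1.95% above 5000 bp.

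The ratio itself hardly moved with length. Median log2 ratios in 9 length ranges lay between 0.03 and 0.10, and the Spearman correlation with length was 0.04 over the 5904 islands. The observed SD was 0.37 up to 400 bp, with 0.30 from counting, and 0.39 above 5000 bp, with 0.07 from counting. By share of the list, 120 of the 5904 members were at least 2-fold higher in H3K27ac. They were 27 of the 1066 members of 1001 to 1400 bp, 25 of the 983 of 1401 to 2000 bp and 25 of the 699 of 2001 to 3000 bp, with the rest in the other ranges.

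Each member was called in both lists, so some enrichment of both marks is part of the rule. A fold of 3 or more in each list was reached by 1682 of the 5904 members and a fold of 5 or more in each by 348, while 824 were under 2 in each. An H3K27ac fold of 5 or more with an H3K4me1 fold under 2 was found in 2 members, and the reverse in 9. Other overlapping pairs were not counted in this way, so these numbers have no comparison. Among members with at least 10 background reads and 100 reads over both lists, those with the highest lower fold of the 2 are given here, as folds on fewer background reads are less certain. There H3K27ac and H3K4me1 folds were 10.8 and 10.9 at chr9:27086801-27087800, and 10.6 and 12.0 at chr4:99802601-99803400. At chr12:14435801-14438000 they were 13.0 and 10.3, from 601 H3K27ac and 402 H3K4me1 reads over 67 background reads. The other islands rested on 20 and 21 background reads, so their folds carry a large counting error from the background library that both lists share.

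Background density barely moved with the ratio. Background was a median of 57.5 reads per kb, from 8.75 to 231.2, and its Spearman correlation with the log2 ratio was -0.05. By decile of background density the median log2 ratio ranged from 0.03 to 0.11. The highest density belonged to chr9:134047801-134059000, with 2908 H3K27ac reads, 2179 H3K4me1 reads and 2589 background reads over 11200 bp. Next came chr1:145044401-145048600, with 752 H3K27ac, 797 H3K4me1 and 827 background reads. The island chr22:19994801-20003400 held 1579 H3K27ac, 2489 H3K4me1 and 1558 background reads, a log2 ratio of -0.60. High raw counts there went with folds of 1.32 to 1.63 for H3K27ac and 1.45 to 2.75 for H3K4me1. K562 is known for amplified segments of the chromosomes that form its BCR-ABL1 fusion. The island on chromosome 1 is not on one of those chromosomes. The part of copy number in these counts was not tested.

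H3K122ac took no part in choosing the islands, and it tracked the ratio. An H3K122ac island was met, by at least 1 bp, at 3430 members, 58.1% (56.8 to 59.3%). The share was 59.2% in the lowest decile of the log2 ratio, 57.5% in decile 5 and 56.9% in the highest, with a range of 53.8 to 62.8% over the 10 deciles, although it was higher among the 120 islands of highest ratio, as given below. Where met, the median H3K122ac fold was 4.48 in the lowest decile, 6.64 in decile 5, 8.13 in decile 9 and 13.3 in the highest, 2.96 times the lowest. The Spearman correlation of H3K122ac fold with the log2 ratio was 0.36 over the 3430 islands, and on each of the 22 chromosomes it was positive, from 0.24 to 0.51. The points share an island call and the background library, which enters the H3K122ac fold but not the ratio.

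Set by class, by share of the list, the contrast lay in the H3K122ac fold, while the intervals of the shares that met H3K122ac overlapped. H3K122ac was met at 86 of the 120 islands at least 2-fold higher in H3K27ac, 71.7% (63.0 to 79.0%), and at 31 of the 53 higher in H3K4me1, 58.5% (45.1 to 70.7%). The median H3K122ac fold was 19.0 in the 86 islands (quartiles 13.0 and 23.7) and 3.87 in the 31 (quartiles 2.55 and 6.17), against 6.39 over all 3430. A fold of 10 or more was reached by 76 of the 86, 88.4%, by 3 of the 31, 9.68%, and by 911 of all 3430, 26.6%. The 2 classes also differed in median H3K27ac fold, 5.46 on the H3K27ac side and 1.65 on the H3K4me1 side. Their median background densities were 54.3 and 63.1 reads per kb. These classes were not tested, because there is 1 H3K122ac library and islands are not replicates. With library ratios the classes would hold 42 and 274 islands, and H3K122ac was not read for those.

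**Figure D4:**
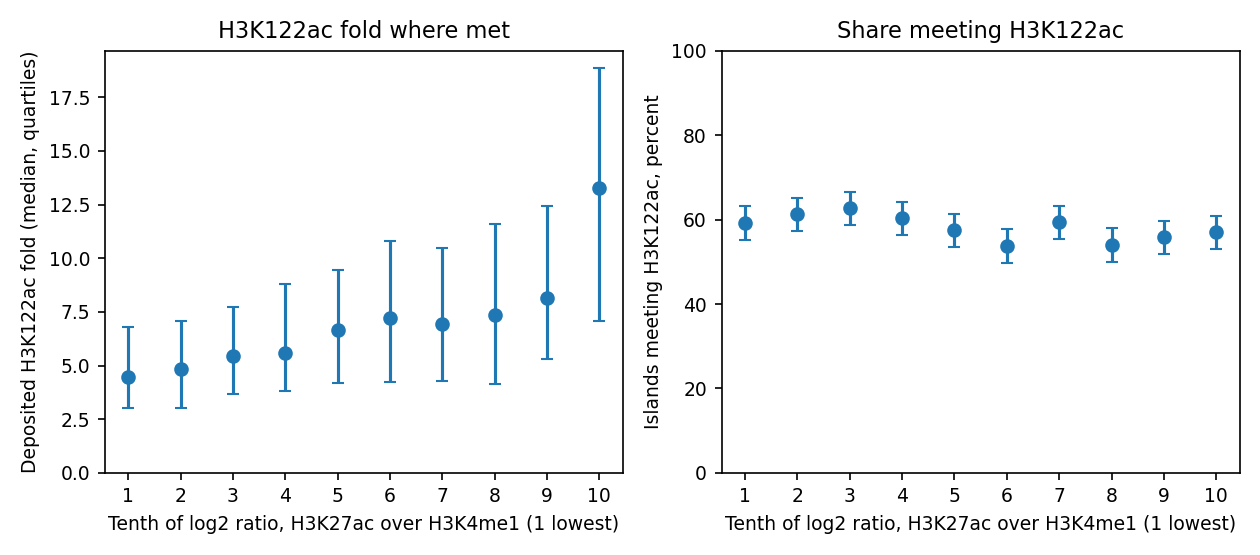
H3K122ac at the identical islands by decile of the log2 ratio of H3K27ac over H3K4me1 (x axis). Left, the deposited H3K122ac fold where an H3K122ac island is met, as median and quartiles; right, the percent of islands that meet one, with Wilson 95% intervals. The fold is 4.48 in the lowest decile and 13.3 in the highest, while the share is 59.2% and 56.9%.

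On the same bases in all 3 lists the relation was also present, and it was weaker at high background. In 847 islands the ends were identical in all 3 K562 lists, with medians of 116 H3K27ac, 118 H3K4me1 and 101 H3K122ac reads. Their median H3K122ac fold was 4.85 in the lowest decile of the ratio and 12.4 in the highest. The H3K122ac signal there, in rpm per kb, was 4.31 and 8.68. This signal is not divided by the background count, and background reads were not taken off it. Across the 847 islands H3K122ac reads per kb had a Spearman correlation of 0.68 with H3K27ac reads per kb and 0.41 with H3K4me1 reads per kb. These points share bases, copy number and mappability. Among members with background density below the median, the log2 difference in H3K122ac fold between the highest and the lowest decile was 1.51. At or above the median it was 0.73, and over all members 1.57. Within quintiles of background density the Spearman correlation was 0.42 in the lowest and 0.19 in the highest, and the part of background was not tested further.

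The relation was present within ranges of H3K4me1 signal, but it was close to absent in the lowest range of H3K27ac signal. Where H3K4me1 is held in a narrow range the ratio mostly follows H3K27ac. The values by H3K4me1 are therefore not separate from the correlation of H3K122ac with H3K27ac. Within quintiles of H3K4me1 reads per kb, the Spearman correlation of H3K122ac fold with the ratio was 0.34 in the lowest and 0.64 in the highest. Within quintiles of H3K27ac reads per kb it was, from lowest to highest, 0.02, 0.15, 0.19, 0.29 and 0.48. Within quintiles of length it was 0.24 to 0.48. Each quintile held 686 islands.

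Members with many reads of both marks met H3K122ac most often. The share was 36.9% in the decile of members with the fewest reads and 92.0% in that with the most. By length it was 47.7% up to 400 bp and 88.5% above 5000 bp. Members with H3K122ac had a median length of 1400 bp and median folds of 2.75 for H3K27ac and 3.44 for H3K4me1. Those without had 1000 bp and folds of 2.15 and 2.48. Their median log2 ratios were 0.06 (0.03 to 0.07) with H3K122ac and 0.09 (0.08 to 0.11) without, a difference of -0.04. The sign of that difference turned to 0.09 when only H3K122ac islands of fold 5 or more were counted, and to 0.04 among members with a fold of at least 2 in both lists.

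The share of members with H3K122ac was close to that of other overlapping islands. H3K122ac was met by 59.7% (59.2 to 60.2%) of the H3K27ac islands in the 40496 pairs with differing ends. Over whole lists it was met by 41.6% of H3K27ac islands and 54.2% of H3K4me1 islands. Other pairs were set in ranges by the length of their H3K27ac island only, and their H3K4me1 island can have another length. By that length the members lay lower among short islands, at 48.5% (45.6 to 51.5%) up to 600 bp against 57.2% (55.9 to 58.4%) of the other pairs. Above 2000 bp they lay higher, at 72.7% (70.2 to 75.1%) against 64.7% (63.8 to 65.5%). These differences exceed counting error, which was the only error available.

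Some islands had a skewed ratio far from any H3K122ac. No H3K122ac island lay within 5000 bp of 1576 members, nor within 50000 bp of 128. Among the 1576, the highest ratios were at chr15:50945001-50946200, with 188 H3K27ac and 74 H3K4me1 reads, and chr8:30917801-30919800, with 237 H3K27ac and 95 H3K4me1 reads. Their log2 ratios were 1.40 (1.01 to 1.81) and 1.38 (1.03 to 1.73), below the 5 highest among all members. H3K27ac folds at both were modest, 3.18 and 3.08. The lowest ratios without H3K122ac nearby were -1.29 at chr10:88480401-88481600, with 63 H3K27ac and 160 H3K4me1 reads, and -1.21 at chr7:26716001-26716800, with 52 and 125.

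Of islands identical in all 3 lists, those with the most reads were about 10 kb long and strong in each mark. The island chr12:127387001-127397400 held 2244 H3K27ac, 1507 H3K4me1 and 2040 H3K122ac reads over 487 background reads. Its log2 ratio was 0.63 (0.54 to 0.73) and its H3K122ac fold 16.2. The islands chr2:119556801-119566800 and chr11:109939001-109949200 had log2 ratios of 0.17 and 0.23, and H3K122ac folds below that of the island on chromosome 12. All 3 had a larger share of H3K27ac, but with library ratios, which move every log2 ratio by -0.30, those on chromosomes 2 and 11 fall below 0.

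By share of the list, with background left in, spread was smaller for this pair of marks than for pairs with H3K122ac. The SD of the log2 ratio beyond counting was 0.40 in the members, 0.58 on 5000 islands identical in the H3K122ac and H3K27ac lists, and 0.67 on 3889 identical in H3K122ac and H3K4me1. Median lengths were 1200, 1200 and 1400 bp. Enrichment was unequal, with median folds of 2.27 over the H3K27ac list, 2.72 over the H3K4me1 list and 5.34 over the H3K122ac list. In the members the SD was 0.45 by share and 0.77 with background taken off, which was not computed for the other sets. The 3 sets share libraries, and the difference between their SDs was not tested, nor was the part of unequal enrichment in it.

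Neighbouring islands resembled each other little. Median gaps from a member to the nearest other island were 1600 bp for H3K27ac and 1800 bp for H3K4me1. The balance of the surroundings, taken as the ratio of H3K27ac to H3K4me1 shares in all other islands centred within 50000 bp, had a Spearman correlation of 0.16 with the member's own log2 ratio (5751 islands with both marks around). It was 0.10 among members with a q-value of at most 1e-10 in both lists, and 0.11 among those with a fold of at least 2 in both. By quintile of that balance, the median log2 ratio of members was -0.02, 0.03, 0.06, 0.14 and 0.17. Members next to each other within 10000 bp differed by a median of 0.40 on the log2 scale, and members 100000 bp to 1 Mb apart by 0.41. Of all members, 348 had no other island of either mark within 10000 bp. They were short, with a median of 800 bp and a median log2 ratio of 0.01 (-0.03 to 0.06), and 79.3% of them met H3K122ac.

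Ratios were alike across chromosomes. By share of the list medians were above 0 on all 22, though each falls below 0 with library ratios, from 0.003 on chromosome 11 to 0.14 on chromosome 7, and on 21 of them the interval held the median of all members. The exception was chromosome 11, among 22 medians compared. Its interval, -0.050 to 0.0710, ended just short of the median of all members, 0.0712. The SD was highest on chromosome 21, at 0.58 over 71 islands, and on chromosome 19, at 0.55 over 247 islands. Chromosome 19 also had the highest share of members with H3K122ac, at 70.4%, and the largest share of its H3K27ac islands among the members, at 4.29%. By share, islands at least 2-fold higher in H3K27ac were 5 of 71 members on chromosome 21, 7.04% (3.05 to 15.4%), and 12 of 247 on chromosome 19, 4.86% (2.80 to 8.30%). Chromosome 2 held the largest number, 13 of 525, or 2.48%, against 2.03% over all members.

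**Figure D5:**
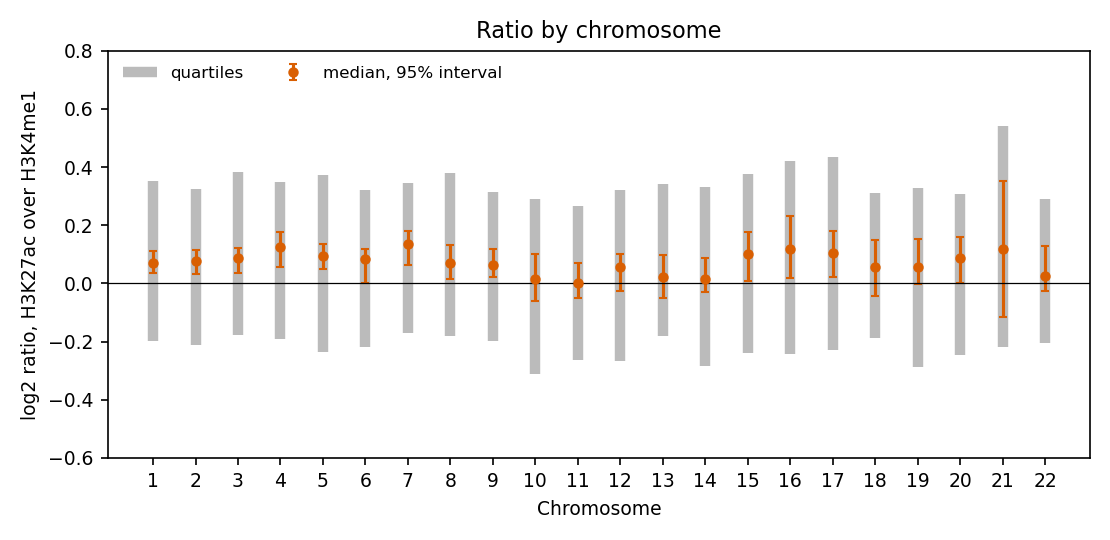
Log2 ratio of H3K27ac over H3K4me1 (y axis) on the identical islands of each numbered chromosome (x axis). Orange points are medians with 95% intervals over islands and grey bars run between the quartiles. Medians lie between 0.003 and 0.14, and the bar is widest on chromosome 21.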

How the data were processed

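The H3K27ac, H3K4me1 and H3K122ac lists of K562 were analysed, with 1 library each. Per the submitters' processing notes, Bowtie 0.12.8, HOMER 4.3, SICER 1.1 and build hg19 were used, with no roles given. The names given to the deposited lists state a 200 bp window, a false discovery rate of 0.01 and gaps of 200 bp (H3K27ac) or 600 bp (other marks). The authors deposited, for each island, whole-number read counts of the ChIP and of a background library, not normalized. The deposited p-value and q-value are the caller's. The deposited fold equals ChIP over background count, over 1 library ratio that was recomputed and constant within a list. The sources used here do not name the background library.

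Identical islands were joined on chromosome, start and end. Each count was divided by its list total. Intervals are 95%: Wilson for shares, exact binomial for single ratios and binomial order statistics for medians. All cover counting error only. Fold 2 was the limit for a called island. No island was tested. Where several H3K122ac islands were met, the highest fold was used. Named islands needed at least 100 reads over both lists and at least 10 background reads. They were the 5 highest and 5 lowest ratios, the 3 longest, the 3 even ones with most reads, the 3 highest lower folds, the 3 highest background densities, the 2 highest and 2 lowest ratios with and far from H3K122ac, and the 3 with most reads identical in all lists. Members and lists were chosen with earlier results of these data known, and the H3K122ac deciles, the spread and the surroundings were added after seeing the data. Python 3.11.15, pandas 2.3.3 and SciPy 1.17.1 were used, and the code was tested on simulated lists. No hg19 annotation or sequence was used here, so islands carry no gene names.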

Additional observations from a re-analysis of the deposited data

How the results depend on the processing

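The results were recomputed under the alternatives, giving 111 values beside those of named islands. Of these, 13 could not change under their setting. Of the other 98, 48 kept their direction and stayed within the interval of the main value, or within 1.5 times for counts. The median log2 ratio, 0.07 by share of the list, was -0.23 with library ratios, -0.38 with background taken off and 0.0032 scaled to the members' own sum. With library ratios, chosen here after seeing the data, it was -0.092 in pairs with differing ends and -0.24 in those with ends at most 1 window apart. In the members it was 0.085 with a fold of at least 2 in both lists and 0.087 for islands of at least 1000 bp. Counts at least 2-fold higher in H3K27ac and in H3K4me1, 120 and 53, were 42 and 274 with library ratios, 220 and 1207 with background taken off, 73 and 8 at a q-value of at most 1e-10, 78 and 11 with a fold of at least 2, 289 and 155 with ends within 1 window, and 660 and 428 at 1.5-fold. Scaled to the members' own sum, they were 93 and 84, so the 2 counts were closer to each other than by share of the list. The share meeting H3K122ac, 58.1%, was 60.3% with at least 50 reads of each mark, 71.9% at the stricter q-value, 66.2% with a fold of at least 2 and 61.9% from 1000 bp. It was 54.9% with 50% of the island covered, 36.3% for an H3K122ac fold of 5 or more and 60.6% within 1000 bp. The difference in median log2 ratio between members with and without H3K122ac, -0.04, was 0.020 at the stricter q-value, 0.044 with a fold of at least 2 and 0.091 for H3K122ac islands of fold at least 5. Between the highest and lowest decile of ratio, the H3K122ac fold differed by a log2 value that was 1.57 over all members, 0.73 at or above the median background density and 1.36 to 1.71 elsewhere; this result and its alternatives were chosen after seeing the data. Scaling moves every ratio by the same amount by construction; other causes were not tested. For named islands, 41 of 81 values stayed within their interval and 40 moved. No named island past 2-fold changed sign, but none could. The scalings move a ratio by less than 2-fold, and taking background off keeps the sign under library ratios. The sign turned in 5 others, under library ratios to -0.21 at chr3:14263401-14282400, -0.01 at chr9:27086801-27087800, -0.18 at chr4:99802601-99803400, -0.13 at chr2:119556801-119566800 and -0.07 at chr11:109939001-109949200. With background taken off their signs are the same by construction. With 1 library per mark, no library could be left out. No paired analysis was possible because each K562 mark has a single library, so no replicate numbers are shared.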
